A study of Arabidopsis thaliana with 6 samples.

Results

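The ALMT family (aluminium-activated malate transporters) was followed in root RNA sequencing of Arabidopsis thaliana, over 3 groups of 2 libraries. Members were the ALMT genes chosen by locus identifier, 9 loci in all, of which 8 had a row among the 24438 genes of the deposited table. ALMT6 (AT2G17470) is not analysed here. The ion libraries came from plants exposed to ionic aluminium, the nanoparticle libraries from plants given nanoparticles of aluminium oxide (nAl2O3), and the control libraries from the control group. Roots of all 3 groups were wild type, ecotype Columbia, at the vegetative stage, and the study set the responses to the dissolved and the particulate form side by side. The sources used here state no doses, exposure times, growth medium or sequencing batches. The other labels of nanoparticle replicate 2 spell the compound nAl2O4, and the library was placed by its title. No label states that the 2 libraries of a group were grown as separate cultures, and the p-values then reflect only how far these libraries lie apart, which may be technical.

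ALMT proteins are membrane channels of plants that carry malate and other anions, some at the plasma membrane and some at the membrane of the vacuole. ALMT1 sits at the plasma membrane of root cells and releases malate, which binds aluminium ions outside the root; the zinc finger factor STOP1 is required for its expression. ALMT12, also called QUAC1, is a plasma membrane anion channel best known from guard cells, whereas ALMT4 and ALMT9 are vacuolar channels that have likewise been studied mainly in the guard cells of leaves.

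The 250 bases before the annotated start of 4 members are shown, because ALMT1, ALMT10 and ALMT12 passed the test in at least 1 comparison and ALMT2 is the close copy that lies beside ALMT1. They were read 5′ to 3′ on each gene's own strand from RefSeq TAIR10.1, at chr1:2658352-2658601 on the plus strand for ALMT1, chr1:2662717-2662966 on the plus strand for ALMT2, chr4:391442-391691 on the minus strand for ALMT10 and chr4:9975115-9975364 on the plus strand for ALMT12. Capitals mark matches to CGCGT on either strand.
ALMT1: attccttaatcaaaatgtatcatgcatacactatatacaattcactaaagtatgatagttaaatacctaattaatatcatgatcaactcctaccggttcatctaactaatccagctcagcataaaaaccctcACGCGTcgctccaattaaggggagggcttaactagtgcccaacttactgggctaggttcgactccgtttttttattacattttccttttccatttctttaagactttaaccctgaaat
ALMT2: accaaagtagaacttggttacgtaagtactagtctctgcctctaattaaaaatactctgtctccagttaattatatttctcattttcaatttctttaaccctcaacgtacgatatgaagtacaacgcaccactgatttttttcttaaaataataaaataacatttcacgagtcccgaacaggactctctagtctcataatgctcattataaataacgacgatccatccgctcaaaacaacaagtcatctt
ALMT10: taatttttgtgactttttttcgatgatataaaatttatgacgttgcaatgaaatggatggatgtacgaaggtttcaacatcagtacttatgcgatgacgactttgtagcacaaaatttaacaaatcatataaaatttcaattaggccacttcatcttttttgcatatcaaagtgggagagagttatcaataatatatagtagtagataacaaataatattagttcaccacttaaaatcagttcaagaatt
ALMT12: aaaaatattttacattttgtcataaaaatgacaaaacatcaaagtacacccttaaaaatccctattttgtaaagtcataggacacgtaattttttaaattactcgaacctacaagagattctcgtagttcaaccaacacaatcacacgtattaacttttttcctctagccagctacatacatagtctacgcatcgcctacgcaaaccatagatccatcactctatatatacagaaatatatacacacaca
These motifs were searched on both strands of these windows: TTGAC, the core of the box bound by WRKY factors, CGCGT, a core bound by calmodulin-binding CAMTA factors, and GNATATNC, the P1BS element of phosphate starvation genes. Over 27443 promoter windows of the same length, 44.9% held TTGAC, 6.87% held CGCGT and 5.46% held GNATATNC. ALMT1 held CGCGT on both strands, 117 to 113 bases before the start on the plus strand and 118 to 114 bases before it on the minus strand, and these matches overlap in 1 palindrome. No match to any of the motifs lay in the windows of ALMT2, ALMT3, ALMT5, ALMT10 and ALMT12. ALMT1 had 0 matches to TTGAC and 0 to GNATATNC. ALMT4 had 1 match to TTGAC and ALMT9 had 2. A match describes these letters only and is not evidence of binding.

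Levels are in RPKM (the reads of a gene divided by its length in kilobases and by the library's total), as deposited by the authors, and reads were recovered from them as whole numbers. The library totals that go with these reads were 12318429 to 14489392. The genes of the table held 99.987% to 99.999% of them, so these totals need not be the full sequencing depth. The test was limma on log2(RPKM + 1) over the 19648 genes that reached an RPKM of 1 in 2 or more libraries, with Benjamini-Hochberg adjustment, and adjusted p under 0.05 counted as passed. On the first principal component, which took 70.9% of the variance, the ion libraries stood apart from the rest. On the second principal component, which took 19.4% of the variance, control replicate 2 stood apart from the other 5 libraries. How many of all genes keep their groups apart without overlap was not counted, so such separation of a member is description only. All 8 root markers were present in every library. Of these, the aquaporin PIP2-4 (-4.52, limma adjusted p = 0.00343) and the root epidermis factor GL2 (-0.90, adjusted p = 0.0348) fell in ion against control roots. The other 6 did not pass there. The root hair factor RHD6 (0.75), SHR (0.43), SCR (0.23), WER (0.22) and CASP1 (0.22) stood above 0 and PYK10 (-0.27) below. The list median was 0.22, against 0.06 over all genes tested, of which 12.3% were higher and 10.3% lower. In ion against nanoparticle roots PIP2-4 fell (-5.74), RHD6 rose (1.03) and the other 6 did not pass. The control libraries of PIP2-4 lay far apart, at 279 and 63.2 RPKM. How the calls of these markers hold with a library left out is not given here. The part of these markers' cell types in the values of the ALMT members was not tested, and fewer cells of a type and less RNA per cell cannot be told apart in such bulk samples.

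In ion roots, ALMT1 (AT1G08430) was the dominant member of the family, and in the other groups it was among its weaker ones. ALMT1 had 246 and 231 RPKM in the ion libraries, 1.34 and 0.906 RPKM in the nanoparticle libraries, and 0.926 and 1.12 RPKM in the control libraries. Both ion libraries were high, and the nanoparticle and control libraries overlapped at a level near the filter. ALMT1 had 4738 and 5165 reads in the ion libraries, 29 and 20 reads in the nanoparticle libraries, and 21 and 24 reads in the control libraries, so that its low levels rest on few reads. By mean RPKM it ranked 494th from the top of the 24438 genes in ion roots, 18596th in nanoparticle roots and 18679th in control roots. ALMT1 rose in ion against control roots (log2 fold change 6.89 ± 0.20, SE, 95% interval 6.42 to 7.35, limma adjusted p = 2.86e-05), the 9th highest fold change of the 19648 genes tested. It also rose in ion against nanoparticle roots (6.82 ± 0.20, limma adjusted p = 2.61e-05), where it ranked 6th. As a ratio of reads per total, ALMT1 was 233-fold higher in ion than in control roots (95% interval 174 to 320, counting error only) and 212-fold higher in ion than in nanoparticle roots (160 to 287). Its difference between nanoparticle and control roots was 0.06 on the log2 scale, with a 95% interval of -0.40 to 0.53, and did not pass (limma adjusted p = 0.903).

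**Figure D1:**
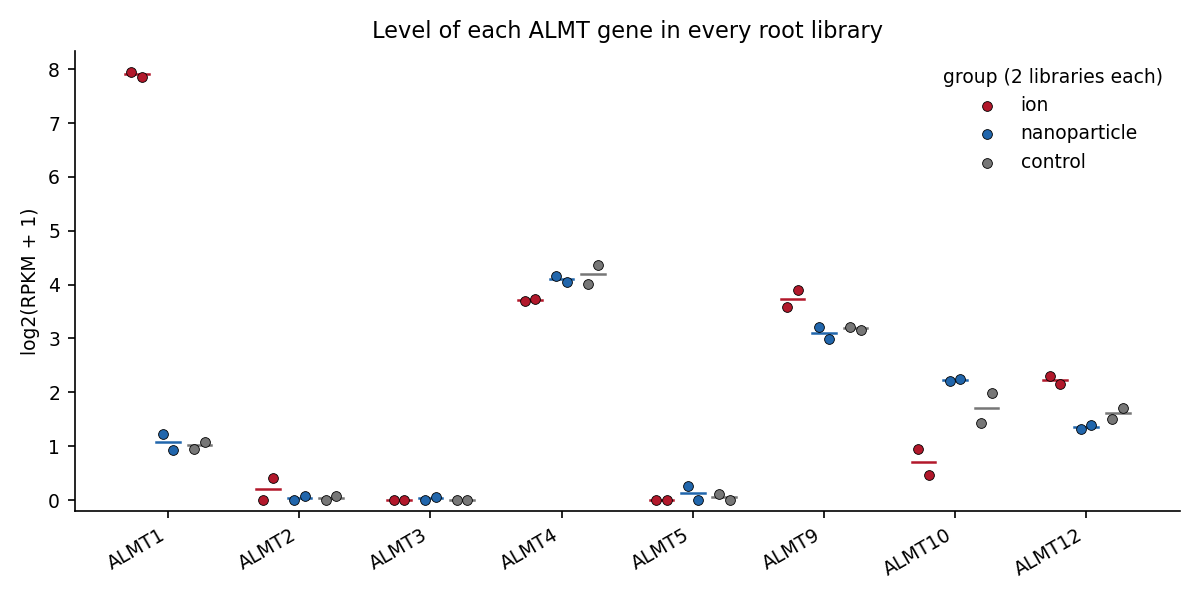
Level of the 8 ALMT genes, as log2(RPKM + 1), with each point a library, each bar the mean of 2 libraries, and the ion, nanoparticle and control groups from left to right for each gene. ALMT1 stands at 246 and 231 RPKM in the ion libraries and at 0.906 to 1.34 RPKM in the other 4, while no other member exceeds 19.7 RPKM.

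ALMT1 lies at chr1:2658602-2661310 on the plus strand (TAIR10.1) and has 6 exons and a coding length of 1482 bases. ALMT2 (AT1G08440) follows on the same strand, 1656 bases further on, at chr1:2662967-2665584. The coding sequences of ALMT1 and ALMT2 were 87.0% identical over 1455 aligned bases, the closest pair among the 9 loci, with a longest identical run of 37 bases. Their annotated transcripts shared 0 stretches of 50 bases. ALMT2 had 0 and 0.326 RPKM in the ion libraries, 0 and 0.0471 RPKM in the nanoparticle libraries, and 0 and 0.0485 RPKM in the control libraries. It stood at 0 in replicate 1 of every group, and its 7 reads in ion replicate 2 were its most in any library. ALMT2 did not reach the filter, and its ratio of reads per total between ion and control roots, 7.42, had a 95% interval of 0.954 to 334.5. How the authors treated reads that match several genes is not given in the sources used here, and a share of ALMT2's reads that belongs to ALMT1 cannot be told apart.

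The protein-coding genes on either side of the ALMT1 and ALMT2 pair did not pass in any comparison. These were AT1G08410, AT1G08420, CRT3 and AT1G08460, with log2 fold changes in ion against control roots of 0.30, -0.05, -0.29 and -0.31. The change of ALMT1 was therefore not accompanied by a called change in these 4 neighbours or by more than 7 reads of ALMT2.

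**Figure D2:**
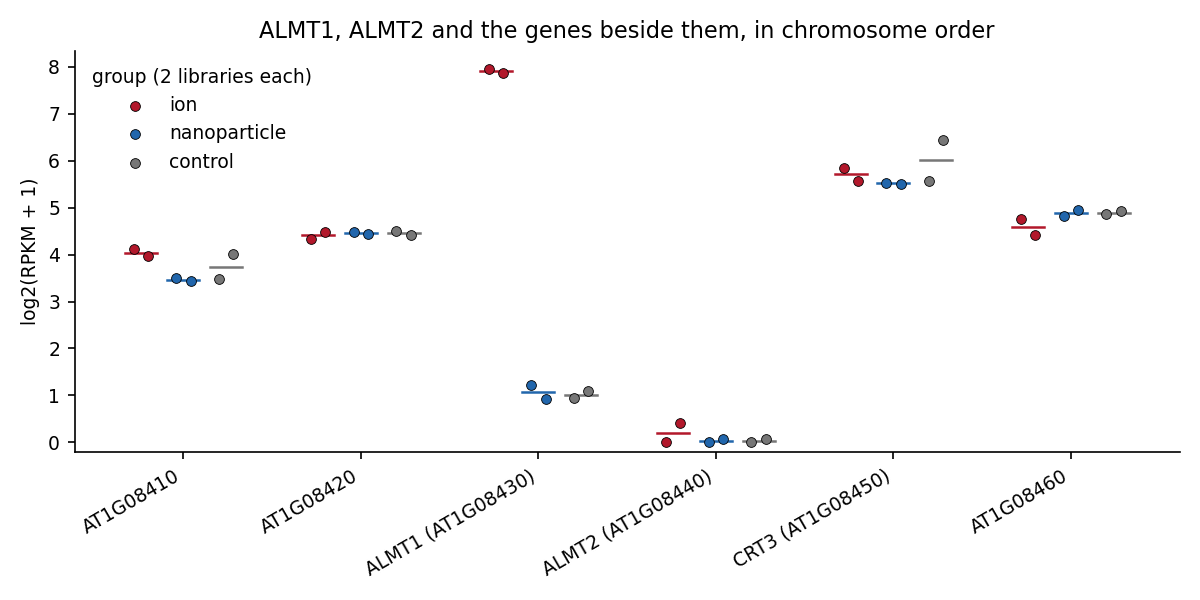
Level of ALMT1, ALMT2 and the 4 genes beside them in chromosome order, as log2(RPKM + 1), with each point a library, each bar the mean of 2 libraries, and the ion, nanoparticle and control groups from left to right. ALMT1 is the gene whose ion libraries stand far from the rest, and the fold changes of the 4 outer genes in ion against control roots lie between -0.31 and 0.30.

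The make-up of the family differed between ion roots and the other groups. Summed over the 8 members, the family had 273 and 262 RPKM in the ion libraries, 31.7 and 28.8 RPKM in the nanoparticle libraries, and 27.9 and 34.1 RPKM in the control libraries. ALMT1 made up 89.9% and 88.4% of that sum in the ion libraries, 4.23% and 3.15% of it in the nanoparticle libraries, and 3.31% and 3.28% of it in the control libraries. Without ALMT1 the other 7 members summed to 27.7 and 30.4 RPKM in the ion libraries, 30.4 and 27.9 RPKM in the nanoparticle libraries, and 27.0 and 33.0 RPKM in the control libraries. These sums overlapped between all 3 groups. ALMT4 was the highest member in each nanoparticle and control library.

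**Figure D3:**
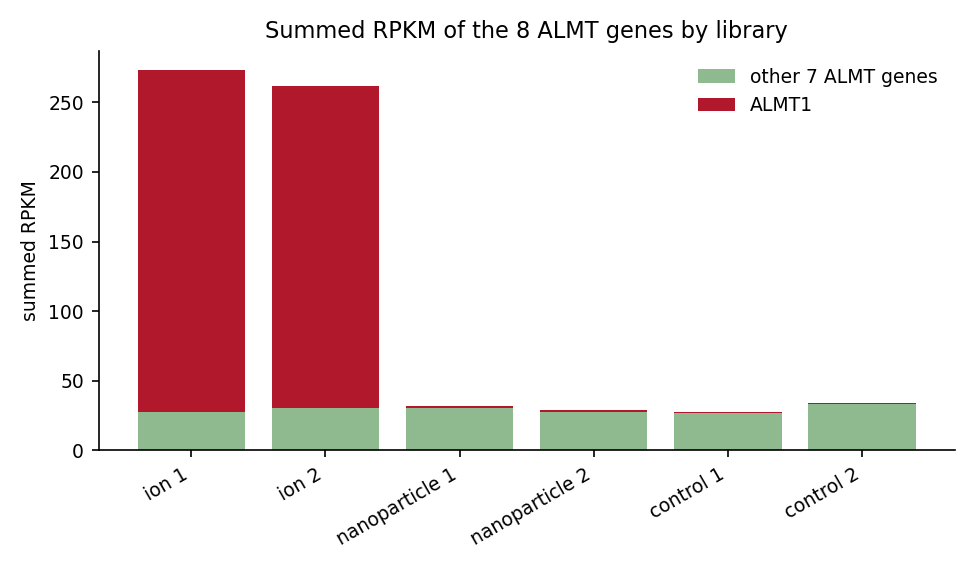
Summed RPKM of the 8 ALMT genes in each library, with ALMT1 stacked on the other 7 genes, and the ion, nanoparticle and control libraries from left to right. ALMT1 takes 89.9% and 88.4% of the bars of the ion libraries, and the other 7 genes add up to between 27.0 and 33.0 RPKM in all 6 libraries.

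Of the 5 members tested in ion against control roots, 2 passed, ALMT1 higher and ALMT10 lower, beside 22.6% of all genes tested (12.3% higher and 10.3% lower). The 2418 genes higher and 2028 lower became 2076 and 2296 with median-of-ratios scaling and 2016 and 2377 with TPM, and the same 2 members passed under both. The median log2 fold change of the 5 was 0.55, against 0.06 over all genes tested. The members were chosen with earlier results of these data known, so counts and medians set beside all genes are description only. ALMT2, ALMT3 and ALMT5 did not reach the filter and were not tested. In ion against nanoparticle roots 3 of 5 passed, ALMT1 and ALMT12 higher and ALMT10 lower, beside 25.3% of all genes tested (13.3% higher and 11.9% lower). The median of the 5 was 0.64, against 0.13 over all genes tested, and with median-of-ratios scaling the genes called numbered 1948 higher and 2767 lower, in place of 2622 and 2347, and their overall median was 0.00, while the same 3 members passed. In nanoparticle against control roots limma called 0 of 5 members and 0.0% of all genes, with 1307 genes at an unadjusted p under 0.05, and limma-voom on the recovered reads also called 0 genes. Without control replicate 1, the only control library left is control replicate 2, which stood apart on the second principal component. Calls of that fit are therefore not counted here. The median log2 fold change of all genes in nanoparticle against control roots was -0.04 without control replicate 1 and -0.03 without control replicate 2. The 3 comparisons share their libraries, so a direction seen against both the nanoparticle and the control group is not independent.

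**Figure D4:**
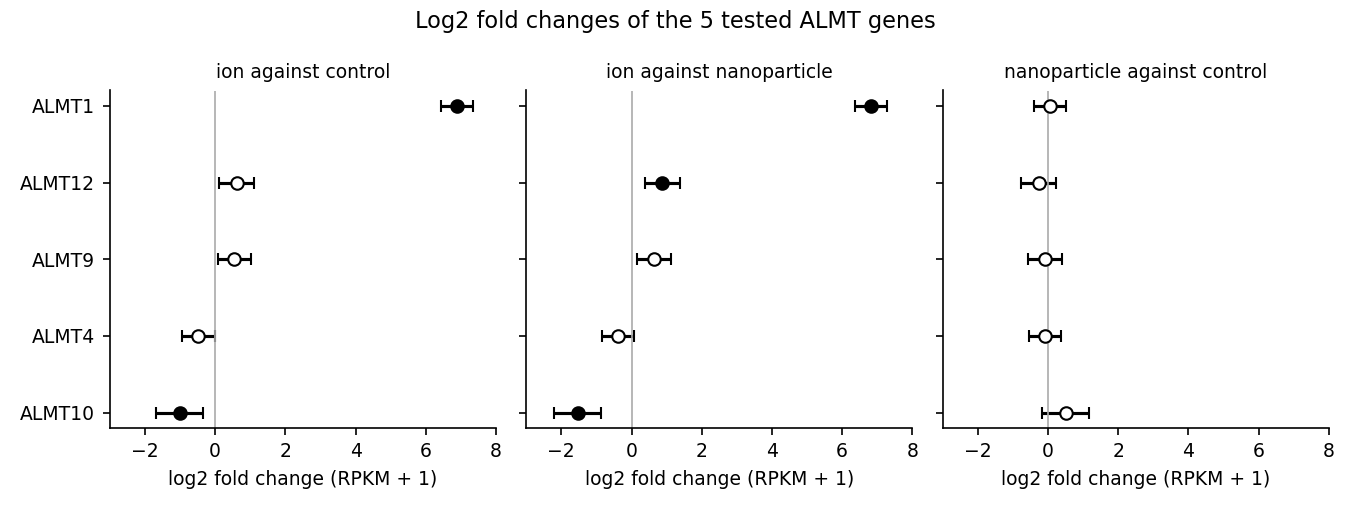
Log2 fold changes of the 5 tested ALMT genes in each comparison, on the log2(RPKM + 1) scale, with bars for 95% intervals and filled points for genes past the test. ALMT1 stands at 6.89 and 6.82 in the ion comparisons, ALMT10 is below 0 and ALMT12 above 0 there, and all intervals of nanoparticle against control roots include 0.

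ALMT10 (AT4G00910), a further member of the family on the minus strand at chr4:387388-391441, was the member that fell. ALMT10 had 0.924 and 0.376 RPKM in the ion libraries, 3.64 and 3.75 RPKM in the nanoparticle libraries, and 1.71 and 2.98 RPKM in the control libraries. Both ion libraries were below every other library, and the nanoparticle libraries were above both control libraries. These levels rest on 17 and 8 reads in the ion libraries, 75 and 79 reads in the nanoparticle libraries, and 37 and 61 reads in the control libraries. ALMT10 fell in ion against nanoparticle roots (log2 fold change -1.53 ± 0.28, limma adjusted p = 0.0101), with 5.87-fold fewer reads per total. It also fell in ion against control roots (-1.01 ± 0.28, limma adjusted p = 0.0434), with 3.70-fold fewer. That second call was lost without ion replicate 1 (-1.26), ion replicate 2 (-0.77), control replicate 2 (-0.74) or either nanoparticle replicate (-1.01), with no filter (adjusted p = 0.0580), with the replicate number as a block (0.0745), when the 2 groups were fitted alone (0.0940) and with library weights (0.0962). The call against nanoparticle roots was lost without nanoparticle replicate 1 (-1.55), nanoparticle replicate 2 (-1.51) or ion replicate 2 (-1.29). Between nanoparticle and control roots the difference was 0.52 (95% interval -0.15 to 1.18, limma adjusted p = 0.595). In TAIR10.1 the gene overlaps AT4G00905 on the opposite strand over 1953 bases, with 34 coding bases of ALMT10 under exons of that gene. The length behind the RPKM of ALMT10 was 1494 bases, against an annotated transcript of 3594 and a coding length of 1458 bases. The model behind these values may thus differ from TAIR10.1 in this overlap and in its start. Strand handling is not given in the sources used here, and AT4G00905 had 11.8 and 9.88 RPKM in the ion libraries, 13.2 and 11.8 RPKM in the nanoparticle libraries, and 13.4 and 8.65 RPKM in the control libraries, which overlap between groups.

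ALMT12 (AT4G17970), the guard cell anion channel QUAC1, was highest in ion roots. It had 3.93 and 3.43 RPKM in the ion libraries, 1.48 and 1.61 RPKM in the nanoparticle libraries, and 1.85 and 2.29 RPKM in the control libraries. The 3 groups did not overlap, with the ion libraries on top and the nanoparticle libraries lowest. How many of all genes separate in this way was not counted. It had 85 and 86 reads in the ion libraries, 36 and 40 reads in the nanoparticle libraries, and 47 and 55 reads in the control libraries. ALMT12 rose in ion against nanoparticle roots (0.87 ± 0.21, limma adjusted p = 0.0247), 2.36-fold in reads per total. That call was lost without ion replicate 1 (0.80), ion replicate 2 (0.95), nanoparticle replicate 1 (0.84) or nanoparticle replicate 2 (0.91). In ion against control roots ALMT12 differed by 0.61 ± 0.21 and did not pass (limma adjusted p = 0.0777), and in nanoparticle against control roots by -0.26 (95% interval -0.76 to 0.23, limma adjusted p = 0.633). For 8 guard cell markers in the table, the sum was 2.78 and 1.31 RPKM in the ion libraries, 1.94 and 4.30 RPKM in the nanoparticle libraries, and 4.32 and 22.4 RPKM in the control libraries. TGG1 and TGG2 had 291 and 248 of the 559 reads of these markers in control replicate 2, so that the control sum rests largely on 1 library. The other 6 markers had at most 15 reads in any library and differed in direction. In ion, nanoparticle and control roots, MYB60 had 13, 20 and 28 reads, HT1 13, 21 and 6 reads, and KAT1 7, 2 and 8 reads. FAMA had 0, 0 and 3 reads, SPCH 6, 4 and 0 reads and KAT2 2, 1 and 0 reads. The part of guard cell RNA in the values of ALMT12 was not tested.

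ALMT4 (AT1G25480) and ALMT9 (AT3G18440), which encode vacuolar channels for malate or chloride, carried most of the family's RNA outside ALMT1. ALMT4 had 11.9 and 12.3 RPKM in the ion libraries, 16.8 and 15.5 RPKM in the nanoparticle libraries, and 15.1 and 19.7 RPKM in the control libraries. Both ion libraries were below the other 4, and the nanoparticle and control libraries overlapped. ALMT4 did not pass in ion against control roots (-0.48 ± 0.19, limma adjusted p = 0.122) or in ion against nanoparticle roots (-0.39 ± 0.19, limma adjusted p = 0.187), but in ion against control roots it stood at -0.66 without control replicate 1, where it passed, and at -0.30 without control replicate 2. ALMT9 had 10.9 and 13.9 RPKM in the ion libraries, 8.24 and 6.90 RPKM in the nanoparticle libraries, and 8.26 and 7.94 RPKM in the control libraries. Both ion libraries were above the other 4, which overlapped. Such separation of the ion libraries was not counted over all genes. Of the 19648 genes tested, 7455 had an unadjusted limma p under 0.05 in ion against control roots. ALMT9 did not pass in ion against control roots (0.55 ± 0.20, limma adjusted p = 0.0955) or in ion against nanoparticle roots (0.64 ± 0.20, limma adjusted p = 0.0594). It passed against nanoparticle roots without either control library (0.64), when the 2 groups were fitted alone, and with library weights. By mean RPKM, ALMT9 and ALMT4 stood close together in ion roots, at 12.4 ± 2.09 and 12.1 ± 0.301 (SD, n = 2), whereas ALMT4 was ahead of ALMT9 in nanoparticle roots, at 16.2 ± 0.922 against 7.57 ± 0.949, and in control roots, at 17.4 ± 3.26 against 8.10 ± 0.225.

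The remaining members were near or at 0. ALMT3 (AT1G18420) had 1 read in all, in nanoparticle replicate 2, and lies under an antisense long non-coding RNA, AT1G18415, in TAIR10.1. ALMT5 (AT1G68600) had 0 reads in both ion libraries, 5 and 0 reads in the nanoparticle libraries, and 2 and 0 reads in the control libraries. A count of 0 allows up to 0.110 to 0.139 RPKM for these genes, depending on gene and library, for counting error only. Differences of ALMT2, ALMT3 and ALMT5 between groups were not detectable at this depth. Of the family's loci outside the rule, ALMT13 (AT5G46600) had 1.29 and 1.63 RPKM in the ion libraries, 1.15 and 1.46 RPKM in the nanoparticle libraries, and 1.64 and 0.926 RPKM in the control libraries. Its groups overlapped, and its fold change in ion against control roots was 0.12 (limma adjusted p = 0.753). ALMT7 had 5 reads, all in ion replicate 1, and ALMT14 had 1 read in ion replicate 2 and 1 in nanoparticle replicate 2. ALMT8 and ALMT11 are not analysed here.

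The genes whose profiles lay closest to ALMT1 were named by Euclidean distance between log2(RPKM + 1) profiles over the 6 libraries, each centred on its own mean, among 19648 genes. They were PEPC1 (AT1G17710), a phosphoethanolamine and phosphocholine phosphatase, at 0.584, the phosphate sensor SPX3 at 0.749, AT5G38910 at 0.910, the acireductone dioxygenase ARD3 at 1.03 and AT1G08165 at 1.04. PEPC1 averaged 151 RPKM in ion roots, 0.0595 RPKM in nanoparticle roots and 0.115 RPKM in control roots, and ARD3 averaged 373 RPKM in ion roots, 1.03 RPKM in nanoparticle roots and 1.28 RPKM in control roots. ALMT10 lay closest to AT5G61260 (0.357), OASA2 (0.369) and AT1G34040 (0.375). ALMT12 lay closest to AT1G03180 (0.0860), the chaperone gene Hsp70-15 (0.109) and EMB2729 (0.125). Distances describe likeness over 6 libraries that share their groups, and they grow with the size of a gene's change.

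Of 8 known regulators of ALMT1, 1 rose and 1 fell in ion against control roots, beside 12.3% of all genes tested higher and 10.3% lower, with a list median of 0.24 against 0.06 over all genes. This list and the 3 lists that follow were chosen with earlier results of these data known. Their counts and medians beside those of all genes are description and not a test. WRKY46, a factor that represses ALMT1, had 15.5 and 20.1 RPKM in the ion libraries, 4.80 and 5.22 RPKM in the nanoparticle libraries, and 4.91 and 4.30 RPKM in the control libraries, and rose alongside ALMT1 (1.74 ± 0.21, limma adjusted p = 0.00223). STOP1, the factor that ALMT1 requires, had 66.6 and 62.1 RPKM in the ion libraries, 116 and 119 RPKM in the nanoparticle libraries, and 120 and 180 RPKM in the control libraries. Thus STOP1 RNA was lowest in the ion libraries, where ALMT1 RNA was highest, and it fell against control roots (-1.18 ± 0.23, limma adjusted p = 0.0143), a call lost without ion replicate 1 (-1.23) or ion replicate 2 (-1.13). RAE1, an F-box protein that targets STOP1 for degradation, differed by 1.07 and did not pass (limma adjusted p = 0.115), and stood at 1.77 without control replicate 1, where it passed, and at 0.377 without control replicate 2. CAMTA2, an activator of ALMT1, differed by 0.36 and did not pass (limma adjusted p = 0.302), and stood at 0.66 without control replicate 2, where it passed, and at 0.0686 without control replicate 1. STOP2 differed by 0.49 and did not pass, and stood at 0.72 without control replicate 2, where it passed, and at 0.27 without control replicate 1. In ion against nanoparticle roots 3 regulators rose, WRKY46 (1.63), STOP2 (0.84) and CAMTA2 (0.83), and STOP1 fell (-0.86). Of all genes tested, 13.3% were higher and 11.9% lower there, and the list median was 0.55 against 0.13 over all genes. The calls of STOP2 (0.72 to 0.96), CAMTA2 (0.73 to 0.92) and STOP1 (-0.91 to -0.81) were lost there without any 1 of the ion or nanoparticle libraries and with no filter, those of CAMTA2 and STOP1 with the replicate block, and those of STOP2 and CAMTA2 with median-of-ratios scaling and with TPM. In nanoparticle against control roots limma called 0 genes of this list and of the 3 lists that follow.

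Of 8 genes that act beside ALMT1 in aluminium tolerance or root malate responses, 4 rose and 0 fell in ion against control roots (list median 0.54), beside 12.3% higher and 10.3% lower and a median of 0.06 over all genes tested. These genes, too, were chosen with earlier results of these data known. The citrate transporter MATE had 6.99 and 15.4 RPKM in the ion libraries, 2.05 and 2.20 RPKM in the nanoparticle libraries, and 2.18 and 1.56 RPKM in the control libraries (2.00 ± 0.35, limma adjusted p = 0.00908). The other 3 were the ferroxidases LPR1 (1.10) and LPR2 (0.74) and the vacuolar transporter ALS1 (0.86), whose calls were each lost when ion replicate 1 (1.16, 0.61 and 0.98) or ion replicate 2 (1.04, 0.88 and 0.74) was left out, and with library weights. Those of LPR2 (0.74) and ALS1 (0.86) were also lost without either nanoparticle library, when the 2 groups were fitted alone and with TPM (0.64 and 0.76), and that of LPR2 with the replicate block. Of 11 tested genes of malate synthesis and breakdown, 2 rose and 0 fell (list median 0.23), beside the same 12.3% and 10.3% of all genes. Both were phosphoenolpyruvate carboxylases, which make the precursor of malate. PPC2 had 107 and 113 RPKM in the ion libraries, 24.4 and 23.4 RPKM in the nanoparticle libraries, and 27.8 and 24.6 RPKM in the control libraries (2.03 ± 0.17, limma adjusted p = 0.000705). PPC1 rose by 1.06 ± 0.17 (limma adjusted p = 0.00715), a call lost without ion replicate 2 (1.05). PPC3 (0.79) and NADP-ME2 (-0.53) did not pass, but did so without control replicate 1 (1.13 and -0.57), and without control replicate 2 they stood at 0.45 and -0.49. Without ion replicate 2, PPC3 stood at 0.44.

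Of 7 tested genes for other channels and carriers of malate and anions, 0 rose and 3 fell in ion against control roots (list median -0.46), beside 12.3% of all genes tested higher and 10.3% lower. The vacuolar malate carrier TDT had 12.2 and 10.6 RPKM in the ion libraries, 123 and 153 RPKM in the nanoparticle libraries, and 116 and 47.5 RPKM in the control libraries, and fell (-2.60 ± 0.39, limma adjusted p = 0.00534), a call lost without ion replicate 2 (-2.51). SLAH1 (-2.57 ± 0.54, limma adjusted p = 0.0177), an anion channel homologue of the root, and the vacuolar nitrate exchanger CLCA (-1.14 ± 0.19, limma adjusted p = 0.00740) fell too. Without ion replicate 1 the call of CLCA was lost (-1.02), and SLAH1, which had 0.178 and 3.39 RPKM in the ion libraries, stood at -1.62 and still passed. In ion against nanoparticle roots the partners list had 4 higher and 1 lower, STAR1 (-0.81), with a median of 0.57. The malate metabolism list had 2 higher and 0 lower, with a median of -0.12. The channel list had 0 higher and 4 lower, with a median of -1.51, SLAH3 (-1.62) being the one not called against control roots. Of all genes tested in that comparison, 13.3% were higher and 11.9% lower, and the median was 0.13. SLAH3 had 6.63 and 15.1 RPKM in the ion, 30.7 and 35.4 RPKM in the nanoparticle, and 15.7 and 10.4 RPKM in the control libraries. STAR1 had 16.6 and 18.3 RPKM in the ion, 28.4 and 34.5 RPKM in the nanoparticle, and 26.0 and 17.7 RPKM in the control libraries. For both genes the ion and control libraries overlapped, and the nanoparticle libraries were highest. The call of STAR1 was lost without any 1 of the ion or nanoparticle libraries (-0.94 to -0.67), with no filter and with the replicate block, and that of SLAH3 without ion replicate 1 (-1.08), nanoparticle replicate 1 (-1.72) or nanoparticle replicate 2 (-1.52). The sum of 6 markers of shoot photosynthesis was lowest in the ion libraries, at 27.8 and 30.9 RPKM. It was 60.5 and 163 RPKM in the nanoparticle libraries and 115 and 141 RPKM in the control libraries, which overlapped. Of these markers, 4 fell in ion against control roots and 3 in ion against nanoparticle roots. In nanoparticle against control roots 0 of these markers were called. Their part in the values of the ALMT members and of these lists was not tested.

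**Figure D5:**
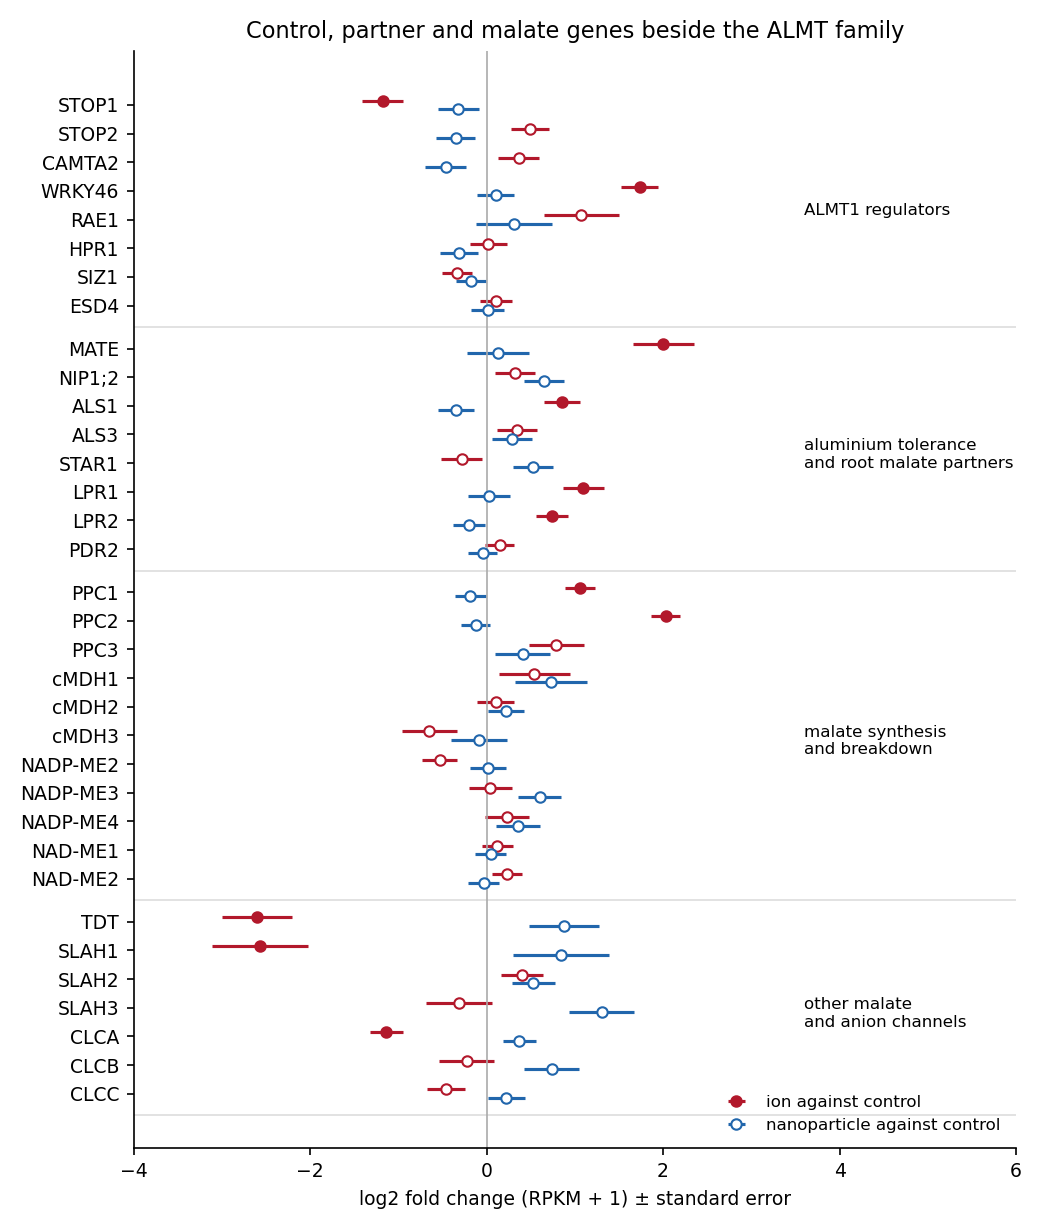
Log2 fold changes with standard errors of the tested genes of the regulator, partner, malate metabolism and channel lists, for ion against control roots (red) and nanoparticle against control roots (blue), with filled points for genes past the test. PPC2 (2.03) and MATE (2.00) are the highest red points, TDT (-2.60) and SLAH1 (-2.57) the lowest, and no blue point is filled.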

How the data were processed

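RNA was sequenced from roots of 3 groups, with 2 libraries each. The authors deposited 1 table of RPKM values, a unit read from the table's name that the values do not contradict. Per the submitters' processing notes the build was TAIR10, and the tools included HTSeq 0.6.0 and TopHat2 2.0.12, with no role stated. Strand handling is not given in the sources used here. Libraries were grouped by title.

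The members and gene lists were chosen with earlier results of these data known. Named genes were all members, the genes of the lists that were called or take a direct part in ALMT1 control or transport, the 5 genes nearest to ALMT1 and the 3 nearest to each other called member. Promoters, coordinates and identities came from TAIR10.1.

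All 24438 genes gave whole reads in all libraries within a tolerance of 1e-06 reads, and no gene row was left out. Whole reads alone do not show that the recovered lengths are right. Of 23677 genes found in the annotation, 4037 had a recovered length equal to an annotated one. limma 3.58.1 in R 4.3.3 was fitted to log2(RPKM + 1) of the 3 groups together, with a mean-variance trend, 3 residual degrees of freedom and two-sided moderated tests. The pseudocount of 1 understates changes of low genes. The fit and the read recovery were tested on simulated data. Intervals on reads cover counting error only. The 15 alternatives covered the pseudocount, filter, scaling, spread, replicate block, voom on recovered reads and each library left out.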

Additional observations from a re-analysis of the deposited data

How the results depend on the processing

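ALMT1 passed in both ion comparisons under all 15 alternatives, at 6.82 to 7.84 against control and 6.68 to 7.73 against nanoparticle roots. The 2 members called in ion against control roots became 1, ALMT1 alone, with no filter, with the filter at RPKM 5 (ALMT10 and ALMT12 then being left out), in a fit of only the 2 groups, with library weights and with the replicate block, and 1 to 3 with a library left out. No label states that replicate numbers pair the libraries. Correlations of same-numbered deviations were 0.0755 between nanoparticle and ion, -0.0541 between nanoparticle and control and -0.164 between ion and control. With 2 libraries a group, these correlations cannot decide whether libraries were paired. The replicate block left 3 members called in ion against nanoparticle roots. There the 3 members became 1 with the filter at RPKM 5, 4 in the 2-group fit and with library weights, and 1 to 4 with a library left out. In nanoparticle against control roots 0 members were called throughout, and 4 signs turned: ALMT1 ran from -0.0841 to 0.213 with a library left out (-0.0047 without control replicate 1), ALMT4 from -0.271 to 0.0919 and ALMT9 from -0.204 to 0.0221. Over all genes, 4446 calls in ion against control roots became 2758 in the 2-group fit, 2904 with library weights and 1865 to 7732 with a library left out. The 4969 of ion against nanoparticle roots became 8055 in the 2-group fit and 8277 with library weights, and the 0 of nanoparticle against control roots stayed 0 in both. Without control replicate 1, the control group is control replicate 2 alone, so calls of nanoparticle against control roots in that fit are not counted. The cause of these changes in number was not tested. Levels of ALMT2, ALMT3 and ALMT5 are limited by depth.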
